A study of Mus musculus with 18 samples.

Results

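Loss of the transcription factor Runx3 was examined in immature natural killer (NK) cells, the CD27+CD11b- subset, by comparing the 3 arrays of Runx3-/- (KO) mice with the 3 arrays of Runx3 +/+ (WT) mice. These 6 arrays were chosen by their labels from 18, and all 35399 probe sets of the array were compared. The mice were 6 weeks old, of the strain ICR, and labelled as male or female. All of them, the WT mice included, had received 2 injections of IL15/Ra complexes (the cytokine interleukin-15 together with a chain of its receptor) 2 days apart. Spleen cells were enriched for NK cells by negative selection and sorted by flow cytometry as NKp46+ cells. The other 12 arrays hold CD27+CD11b+ (DP) and CD27-CD11b+ (CD11b) cells, 3 WT and 3 KO arrays of each. The arrays of the immature subset are called WT1 to WT3 and KO1 to KO3. The knockout is present in every cell of the animal, so the cells compared matured in mice without Runx3 in any tissue. The labels do not say whether an array holds 1 animal or a pool, so p-values measure the spread between these samples only.

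Runx3 belongs to the Runt family, whose members bind DNA together with the partner Cbfb and can activate or repress genes. NK cells kill through granules that carry perforin and granzymes, and they depend on interleukin-15 for survival and growth. In mouse spleen they mature from CD27+CD11b- cells through double-positive cells to CD27-CD11b+ cells, gaining effector genes and losing proliferative capacity on the way.

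Runx3 mRNA was lower in KO cells but was not lost from the signal. The log2 level was 11.39, 11.49 and 11.46 on WT1 to WT3 and 10.94, 11.14 and 10.72 on KO1 to KO3. The groups did not overlap, which held for 16.4% of all probe sets, and KO was 1.43-fold lower (95% interval 1.22 to 1.68, limma adjusted p = 0.0416). The call ended with any array but KO2 left out, at adjusted p-values of 0.0772 (WT1), 0.162 (WT2), 0.11 (WT3), 0.117 (KO1) and 0.117 (KO3). The place of the probe set relative to the deleted part is not known here, so Runx3 checks the labels only weakly. Runx1, the related factor, read 10.91, 10.68 and 10.55 in WT and 11.28, 11.21 and 10.98 in KO, which did not pass (adjusted p = 0.0953). Cbfb differed by 0.03 log2 (adjusted p = 0.961).

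The markers of the sort were those of the gate in both genotypes. Cd27 lay between 11.32 and 11.91 on the 6 arrays of the immature subset, against a mean of 9.87 for the CD11b cells of WT mice. Itgam, the gene of the CD11b chain, lay between 9.25 and 10.62, against 12.60 in WT CD11b cells. Ncr1, which encodes NKp46, lay between 13.47 and 13.69. Most markers of other white cells were low: 13 of 16 B cell, 16 of 19 macrophage and monocyte and 15 of 18 neutrophil markers stayed below 6 on all 6 arrays, among them Cd79a, Csf1r and S100a8. The mean level of each list was 5.17 to 5.70 on the WT and 5.18 to 5.73 on the KO arrays. The members that reached 6 were Cd79b, Cd22 and Cd72, then Cd68, Ccr2 and Ly86, and then Ly6g, Mpo and Stfa2. Of these, Cd72 read 10.03, 7.50 and 7.09 in WT and 5.23 to 5.74 in KO (adjusted p = 0.311), Ly6g 7.02 to 7.59 in WT and 5.79 to 6.66 in KO, and Ly86 5.37 to 6.3 in WT and 6.86, 6.01 and 8.08 in KO.

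KO3 stood apart from the other arrays. It was the array highest of the 6 for 43 of 43 measured genes of DNA replication and S phase and for 62 of 63 genes of mitosis. It also carried genes of other blood lineages: Car1, carbonic anhydrase 1 of red cell precursors, read 11.67 on KO3 and 5.4 to 6.82 on the others, Cpa3, the mast cell carboxypeptidase, 8.77 against 5.22 to 6.40, Gata2 7.12 against 5.0 to 5.19, and the MHC class II chain H2-Aa 8.06 against 5.41 to 5.56. Late red cell genes were not high on it, with Alas2 at 5.26 and Slc4a1 at 5.33. Over the 15 measured erythroid and platelet markers the mean log2 level was 6.85 on KO3 and 5.89 to 6.03 on the other 5 arrays, and 10 of 15 were highest on KO3. Xist was high on WT2, WT3 and KO3 (12.84 to 13.00) and low on the others (5.13 to 5.69), so the sexes were not balanced between the genotypes. The Y-linked gene Eif2s3y read 11.06, 6.44 and 4.86 on WT1 to WT3 and 11.10, 11.05 and 6.83 on KO1 to KO3. Whether an array holds cells of both sexes was not tested. The total count of calls is therefore given with and without KO3, and so is that of each gene list described where it differs; other counts are of all 6 arrays. With the Xist level as a covariate 464 probe sets passed in place of the 321 given next. The part of cells of other lineages in the results was not tested, and in sorted cells a change in the share of cells and a change in RNA per cell cannot be told apart.

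With all 6 arrays, 321 probe sets passed limma's test (0.907% of those tested), 91 higher in KO (0.257%) and 230 lower (0.65%). They name 69 genes that rose and 172 that fell, and 56 of the 321 have no single gene symbol. The rises were larger: their median was 1.12 log2 and 55 of 91 were at least 2-fold, against a median of -0.67 and 47 of 230 among the falls. Without KO3, 282 passed (0.797%), 138 higher (0.39%) and 144 lower (0.407%). Thus falls made up 71.7% of the calls with KO3 and 51.1% without it, and 53.8% (148 higher and 172 lower) when all 6 arrays were renormalized by cyclic loess. All 321 kept their sign without KO3, and 174 of them passed in both comparisons, which is 54.2% of the first list and 61.7% of the second. With each of the 6 arrays left out in turn, 97 of the 321 passed every time, 34 higher and 63 lower. The total was 117 without WT2, 160 without KO1, 184 without KO2, 213 without WT3 and 241 without WT1.

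**Figure D1:**
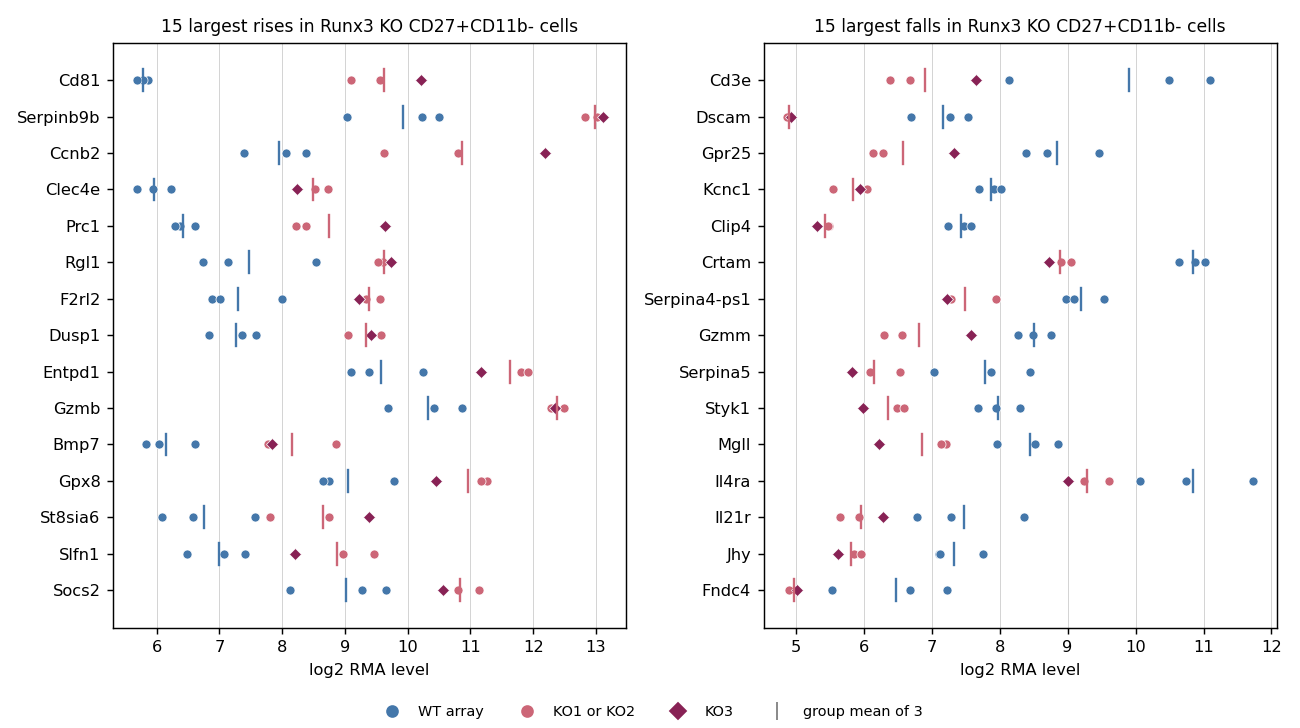
Log2 RMA level on each of the 6 arrays for the 15 genes with the largest rises (left) and the 15 with the largest falls (right), with group means of 3 arrays as vertical ticks; blue is WT, red KO1 and KO2, and the dark diamond KO3. For Cd81 the KO arrays lie at 9.10 to 10.22 and the WT arrays at 5.68 to 5.86, and for Dscam all 3 KO arrays lie at 4.87 to 4.93.

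Genes of the cytotoxic granule changed in both directions in immature KO cells. Of 26 measured, Gzmb, Rab27a and Gzma rose, Gzmm fell and 22 did not pass. Over all 19938 genes, with 1 probe set each, 1.19% passed (0.346% rose and 0.843% fell), and 0.833% without KO3. The median of the granule genes was 0.01 log2, and that of all genes was -0.01. Gzmb, granzyme B, read 10.86, 9.68 and 10.43 in WT and 12.49, 12.28 and 12.35 in KO. KO arrays were tightly grouped above all WT arrays, a rise of 4.15-fold (95% interval 3.01 to 5.70, adjusted p = 0.000375). Rab27a, the small GTPase that docks granules at the membrane, read 9.60, 9.60 and 9.57 in WT and 10.24, 10.51 and 10.60 in KO, a rise of 1.81-fold (1.59 to 2.07, adjusted p = 0.000375). Gzma, granzyme A, was already near the top of the scale at 12.88 to 13.00 in WT and 13.28 to 13.46 in KO (1.35-fold, adjusted p = 0.00681). Gzmm, granzyme M, went the other way, from 8.27, 8.50 and 8.75 to 6.56, 6.3 and 7.57, with KO3 the highest KO array (3.24-fold lower, 2.25 to 4.66, adjusted p = 0.00418). Perforin (Prf1) differed by 0.05 log2 (adjusted p = 0.956), and the granule proteins Srgn and Nkg7 by 0.01 and -0.03. All 4 calls held without KO3, at adjusted p-values of 0.000204 to 0.0115.

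Serpins inhibit proteases, and some of those of clade B inhibit granzymes. Of 16 measured, Serpinb9b, Serpinb9 and Serpinb6b rose, Serpina5 fell and 12 did not pass (3 and 0 without KO3), with a median of 0.02. Serpinb9b read 10.50, 10.22 and 9.03 in WT and 12.83, 13.01 and 13.11 in KO, an 8.36-fold rise (5.4 to 13.0, adjusted p = 0.000267). Serpinb9, a known inhibitor of granzyme B, went from 11.27 to 11.37 in WT to 11.97 to 12.20 in KO (1.69-fold, adjusted p = 0.00318). Serpinb6b was 1.40-fold higher (adjusted p = 0.0139, 0.0605 without KO1 and 0.0596 without WT3). Serpina5, a secreted serpin of clade A, fell by 1.63 log2 (adjusted p = 0.0255), and its call ended without KO3 (0.0807), KO2 (0.0823), WT1 (0.0735) or WT3 (0.0815).

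Among membrane proteins the largest rise was that of Cd81, a tetraspanin that organizes receptors at the cell surface. It was at 5.86, 5.79 and 5.68 in WT and at 9.55, 9.10 and 10.22 in KO, a 14.4-fold difference (9.02 to 22.9, adjusted p = 6.37e-05). Tspan32 was the other of 21 measured tetraspanins that rose, from 10.83 to 10.86 in WT to 11.64 to 12.04 in KO (2.07-fold, adjusted p = 0.00341), and 19 did not pass. Clec4e (Mincle), a C-type lectin best known from myeloid cells, rose from 5.68, 5.94 and 6.22 to 8.73, 8.52 and 8.24 (5.84-fold, 4.3 to 7.92, adjusted p = 6.37e-05). It was 1 of 22 myeloid lectins to pass. Of the 19 macrophage and monocyte markers none passed (2 at an unadjusted p under 0.05), 16 stayed below 6, and Ly86 differed by 1.21 log2 (adjusted p = 0.657); their part in the Clec4e difference was not tested. Entpd1 (CD39), which degrades extracellular ATP, read 10.24, 9.10 and 9.39 in WT and 11.81, 11.91 and 11.17 in KO (4.15-fold, 2.83 to 6.08, adjusted p = 0.00161). F2rl2, a protease-activated receptor, rose 4.24-fold (adjusted p = 0.00159). These 5 calls held with each array left out.

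Few NK cell receptors passed. Of 36 activating receptors and adaptors, Klrb1a rose, Crtam fell and 34 missed the threshold. The list's median was -0.08, 7 of the 36 differences were above 0, and 8 were lower and 2 higher at an unadjusted p under 0.05. Klrb1a, of the NKR-P1 family, went from 10.26, 10.43 and 11.02 to 11.84, 11.76 and 12.28 (2.63-fold, adjusted p = 0.00251). Crtam, a receptor for the adhesion protein Cadm1, went from 10.63, 11.02 and 10.87 to 8.90, 9.05 and 8.72 (3.87-fold lower, 2.38 to 6.28, adjusted p = 0.0105, and 0.0587 without WT2). Of 23 inhibitory receptors, Tigit alone passed: it lay between 9.98 and 10.04 on the WT arrays and read 11.45, 11.22 and 11.29 in KO (2.48-fold, 2.00 to 3.09, adjusted p = 0.000687). Outside the gene lists, and named after their values were seen, Kir3dl1 fell from 5.86, 6.59 and 6.17 to 4.82, 5.18 and 4.77 (log2 difference -1.29, SE 0.15, adjusted p = 0.000781) and Klrh1 fell by 0.74 log2 (adjusted p = 0.00129). None of 6 measured Ly49 genes passed (2 at an unadjusted p under 0.05). Among them Klra8 read 8.90, 9.51 and 9.64 in WT and 8.28, 8.33 and 8.49 in KO (adjusted p = 0.105).

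Cytokine receptors gave falls and no rise. Of 31 measured, Il4ra, Il21r and Ifnar2 fell and 28 did not pass (0 and 2 called without KO3, median -0.06), among them the interleukin-15 receptor chain Il2rb at -0.03 log2. The 2 falls without KO3 were Il21r (adjusted p = 0.0272) and Kit (0.0244), which did not pass with all 6 arrays (0.211). Il21r, the receptor of interleukin-21, went from 6.79, 7.29 and 8.36 to 5.93, 5.66 and 6.28 (2.87-fold lower, adjusted p = 0.0216). Its call ended without KO2 (0.0892), KO1 (0.0745) or WT2 (0.0587). Il4ra went from 10.06, 10.74 and 11.73 to 9.24, 9.62 and 9.0 (2.94-fold lower, adjusted p = 0.0255), a call lost without KO3 (0.0792), KO1 (0.087) or WT2 (0.0765). Ifnar2, a chain of the type I interferon receptor, fell by 0.36 log2 (adjusted p = 0.0311). It kept its call only with WT1 left out, at 0.0719 (KO3), 0.0842 (KO2), 0.0979 (KO1), 0.0965 (WT2) and 0.101 (WT3) otherwise, and lost it under cyclic loess (0.0663). Of 20 measured feedback genes of JAK-STAT signalling 2 rose and 18 did not pass, and the median was -0.10 log2. The risers were Cish, from 5.34 to 5.63 in WT to 6.06 to 6.39 in KO (1.73-fold, adjusted p = 0.00297), and Socs2, from 9.66, 9.27 and 8.12 to 10.81, 11.13 and 10.56 (3.51-fold, adjusted p = 0.0317). The Socs2 call was on 1 of its 2 probe sets, and it ended without KO2 (0.112), KO1 (0.0955), WT3 (0.0845) or WT2 (0.0754). Socs1 and Socs3 differed by 0.03 and -0.15.

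Several genes of mature NK cells were higher in the immature KO cells. Of 27 measured, 6 rose, 0 fell and 21 did not pass (5 and 0 without KO3), with a median of 0.29 log2 (0.34 without KO3) against -0.01 for all genes. The 6 were Gzmb, Gzma, Entpd1, Prdm1, Cma1 and S100a4. The mean level of the list was 11.2, 10.8 and 10.6 on WT1 to WT3 and 11.3, 11.5 and 11.1 on KO1 to KO3. WT1 thus lay above KO3. Prdm1 (Blimp-1), a repressor induced on terminal differentiation of lymphocytes, read 10.40, 9.75 and 10.07 in WT and 11.18, 11.29 and 11.05 in KO (2.15-fold, 1.68 to 2.75, adjusted p = 0.00527). It was the 1 of 38 measured NK transcription factors that passed. At an unadjusted p under 0.05, 3 of the 38 were higher and 10 lower, and 11.6% of all probe sets were at that level. Eomes read 12.42, 12.52 and 12.50 in WT and 12.14, 12.09 and 12.19 in KO, no overlap but an adjusted p of 0.0776, and Tbx21 differed by -0.07 (adjusted p = 0.883). Cma1, a chymase also on the mast cell list, rose 2.27-fold (adjusted p = 0.0271), a call that ended without KO1 (0.109), KO2 (0.0978) or WT2 (0.0587). S100a4 rose 2.39-fold (0.0449), and its call ended with any of the 6 arrays left out (0.0635 to 0.16, and 0.0663 without KO3). Of the 27, 19 differences were above 0. Those furthest below it were Emb at -1.27, Itgax at -1.12, Itgam at -0.65 and Klrg1 at -0.53, all short of the threshold. Emb is also on the list of immature NK markers. Of 24 immature NK markers, Socs2 rose, Il21r fell and 22 missed the threshold (1 and 2 called without KO3, the added fall being Kit). The list's median was -0.21, and 2 were higher and 9 lower at an unadjusted p under 0.05.

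Falls were led by Cd3e, a signalling chain of the T cell receptor whose mRNA is also found in immature NK cells. It read 10.49, 11.09 and 8.14 in WT and 6.39, 6.69 and 7.65 in KO, so that WT3 lay nearer to KO3 than to the other WT arrays (8.01-fold lower, 3.58 to 17.9, adjusted p = 0.0179). The call ended without KO1 (adjusted p = 0.0812), KO2 (0.0698), WT1 (0.0673) or WT2 (0.0754), and held without KO3 (0.0197). Cd3d fell by 1.32 log2 (adjusted p = 0.0476), but not with KO3 (0.132), KO2 (0.134), KO1 (0.0653), WT2 (0.154) or WT3 (0.147) left out or under cyclic loess (0.055), while Cd3g read 11.47 to 12.62 on all arrays. Of 18 T cell markers these 2 fell and 16 did not pass (1 fell without KO3). The mean level of the 18 was 7.45 to 7.78 on the WT and 7.12 to 7.35 on the KO arrays, and 3 of the 18 differences were above 0. Of single members, Cd8a (5.57 to 6.16), Cd5 (5.19 to 6.05) and Foxp3 (5.21 to 5.43) were low on every array. Cd4 read 4.90 to 5.06 in WT and 5.65 to 6.71 in KO. Without KO3 and the DP and CD11b arrays of its number, 1 T cell marker was called higher and 1 lower. The part of T cells in the Cd3e difference was not tested.

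Other falls were tighter than that of Cd3e. Dscam, an adhesion molecule of the immunoglobulin superfamily, went from 6.69, 7.54 and 7.27 to 4.89, 4.87 and 4.93 (4.82-fold lower, 3.81 to 6.11, adjusted p = 2.92e-05, the smallest adjusted p of the named genes). Kcnc1, a voltage-gated potassium channel, went from 7.70, 7.92 and 8.02 to 6.04, 5.55 and 5.95 (4.10-fold lower, adjusted p = 0.000267). Clip4, a protein of the microtubule-binding CLIP family, went from 7.48, 7.57 and 7.24 to 5.49, 5.48 and 5.31 (4.02-fold lower, adjusted p = 0.000296). The receptor Gpr25 fell 4.82-fold (adjusted p = 0.00583) and Styk1, a kinase-like membrane protein, 3.08-fold (adjusted p = 0.00293). The phosphatase Ptpn3 passed on 9 of its 12 probe sets, all lower in KO by 0.61 to 1.45 log2, and 7 of the 9 also passed without KO3. Myo9a, an unconventional myosin, passed on 6 of 13, all lower, of which 2 passed without KO3. Tcf12, a basic helix-loop-helix factor, fell from 11.65 to 11.84 in WT to 10.94 to 11.07 in KO (adjusted p = 0.000267), and the NF-kappa B subunit Rel by 0.54 log2 (adjusted p = 0.0105); Ptpn3, Myo9a, Tcf12 and Rel were named after their values were seen. Mgll, the lipase that degrades endocannabinoids, fell from 8.53, 8.86 and 7.96 to 7.22, 7.13 and 6.23 (adjusted p = 0.0255), but not without KO3 (0.0719), WT1 (0.0721) or WT2 (0.127). Jhy and Fndc4 completed the 15 largest falls with the pseudogene Serpina4-ps1, which went from 8.98, 9.09 and 9.53 to 7.95, 7.29 and 7.23. The Fndc4 call (adjusted p = 0.0229) held only with WT1 left out (0.0518 to 0.11 otherwise). Cxcr5, a chemokine receptor of the follicle, fell by 0.70 log2 from low levels (adjusted p = 0.0436), and its call also held only with WT1 left out (0.0724 to 0.147 otherwise, and 0.0512 with Xist as a covariate).

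Promoters of the genes that changed are shown because Runx proteins bind the sequence TGTGGT. RefSeq promoters (GRCm38.p6), from 250 bases before to 50 bases after the start of a transcript, were searched for TGTGGT on both strands, which appears as ACCACA when it lies on the other strand. The motif was in 24 of 80 promoters of genes that rose (30%), in 22 of 170 promoters of genes that fell (12.9%) and in 2707 of 19116 promoters of all named genes on the array (14.2%). Counted by gene, with 61, 137 and 15563 genes that have a promoter in the table, the shares were 37.7%, 14.6% and 16.4%. A match is a description of the letters and not a site of binding, and its absence from a window, as for Cd81, Serpinb9b and Dscam, says only that the letters are not in it. The 250 bases before the start are given for 4 genes that rose and 2 that fell, 5′ to 3′ on the gene's strand, with the motif in capitals. They are examples and not a ranking, and Rab27a and Tspan32 are not among the 15 largest rises. Other named genes with a match before the start include Runx3, Clip4 and Il21r, which fell. Gzma, Klrb1a, Tigit and Itga4, which rose, also have one. Gzmb has it at positions -93 and -34 (chr14:56262335-56262584, minus strand) and Clec4e at -114 (chr6:123289872-123290121, minus). Rab27a has it at -140 (chr9:73044560-73044809, plus), and Tspan32 at -70 and, on the other strand, at -41 (chr7:143004796-143005045, plus). Of the genes that fell, Gpr25 has it on the other strand at -124 (chr1:136260927-136261176, minus) and Gzmm, also on the other strand, at -247 (chr10:79688770-79689019, plus). For Rab27a and Gzmm the table holds another promoter, without a match.
Gzmb: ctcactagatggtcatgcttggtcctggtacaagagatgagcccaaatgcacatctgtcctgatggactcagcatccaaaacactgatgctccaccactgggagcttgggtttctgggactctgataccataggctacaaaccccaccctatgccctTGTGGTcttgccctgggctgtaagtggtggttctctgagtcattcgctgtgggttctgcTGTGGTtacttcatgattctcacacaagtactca
Clec4e: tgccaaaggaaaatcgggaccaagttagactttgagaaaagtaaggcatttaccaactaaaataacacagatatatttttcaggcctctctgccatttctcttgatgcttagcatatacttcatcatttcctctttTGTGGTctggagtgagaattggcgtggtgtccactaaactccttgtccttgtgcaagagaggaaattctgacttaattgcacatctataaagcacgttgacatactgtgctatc
Rab27a: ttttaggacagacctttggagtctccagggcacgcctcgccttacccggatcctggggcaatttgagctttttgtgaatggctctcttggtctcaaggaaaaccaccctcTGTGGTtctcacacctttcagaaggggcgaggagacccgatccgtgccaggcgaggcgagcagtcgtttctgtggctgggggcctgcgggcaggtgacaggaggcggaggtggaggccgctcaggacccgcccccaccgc
Tspan32: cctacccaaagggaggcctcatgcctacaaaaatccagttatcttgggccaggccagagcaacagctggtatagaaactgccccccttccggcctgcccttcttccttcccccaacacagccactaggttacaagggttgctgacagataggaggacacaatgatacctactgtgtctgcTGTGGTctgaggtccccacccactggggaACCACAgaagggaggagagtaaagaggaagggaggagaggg
Gpr25: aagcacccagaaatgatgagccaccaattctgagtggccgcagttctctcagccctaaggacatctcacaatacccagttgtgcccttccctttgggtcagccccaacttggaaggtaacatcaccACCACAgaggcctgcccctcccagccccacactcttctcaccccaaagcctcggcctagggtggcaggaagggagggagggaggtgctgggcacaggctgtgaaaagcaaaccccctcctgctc
Gzmm: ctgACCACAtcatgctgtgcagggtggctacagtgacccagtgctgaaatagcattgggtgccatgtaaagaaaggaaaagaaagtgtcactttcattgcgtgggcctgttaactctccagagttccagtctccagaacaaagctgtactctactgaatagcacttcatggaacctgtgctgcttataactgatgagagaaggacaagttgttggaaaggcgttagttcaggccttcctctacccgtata

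The other large rises were in genes of diverse function. Dusp1, which inactivates MAP kinases, went from 7.59, 7.36 and 6.84 to 9.57, 9.04 and 9.41 (4.21-fold, 2.94 to 6.03, adjusted p = 0.000952) and was the 1 of 16 phosphatases of its class to pass. None of 28 immediate early genes passed (6 at an unadjusted p under 0.05, all lower in KO), with Jun at 6.11, 6.17 and 6.92 in WT and 5.08, 5.38 and 5.46 in KO (adjusted p = 0.119). Bmp7, a ligand of the TGF-beta family, rose 4.0-fold (adjusted p = 0.00297), while none of the 29 other TGF-beta and BMP pathway genes passed (5 at an unadjusted p under 0.05). Gpx8, a peroxidase of the endoplasmic reticulum, rose from 9.78, 8.74 and 8.65 to 11.27, 11.17 and 10.45 (3.75-fold, adjusted p = 0.00297). The schlafen gene Slfn1 rose 3.69-fold (adjusted p = 0.0303), a call that held without KO3 (0.0183) but not without KO1, KO2, WT1, WT2 or WT3 (0.0565 to 0.112). Rgl1, a guanine nucleotide exchange factor for Ral, rose 4.43-fold (0.0373), but not without KO1, KO2, KO3, WT1 or WT2 (0.0896 to 0.173). St8sia6, a sialyltransferase, read 6.58, 7.58 and 6.09 in WT and 8.75, 7.81 and 9.38 in KO (adjusted p = 0.0388), and its call ended without KO1, KO3, WT1 or WT3 (0.108 to 0.134). Itga4, the alpha chain of the integrin VLA-4, rose by 0.56 log2 (adjusted p = 0.0389), but not without KO1 (0.128), KO2 (0.121) or WT3 (0.0699). Of 27 interferon-stimulated genes Oas3 alone rose (2.66-fold, adjusted p = 0.00695).

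**Figure D2:**
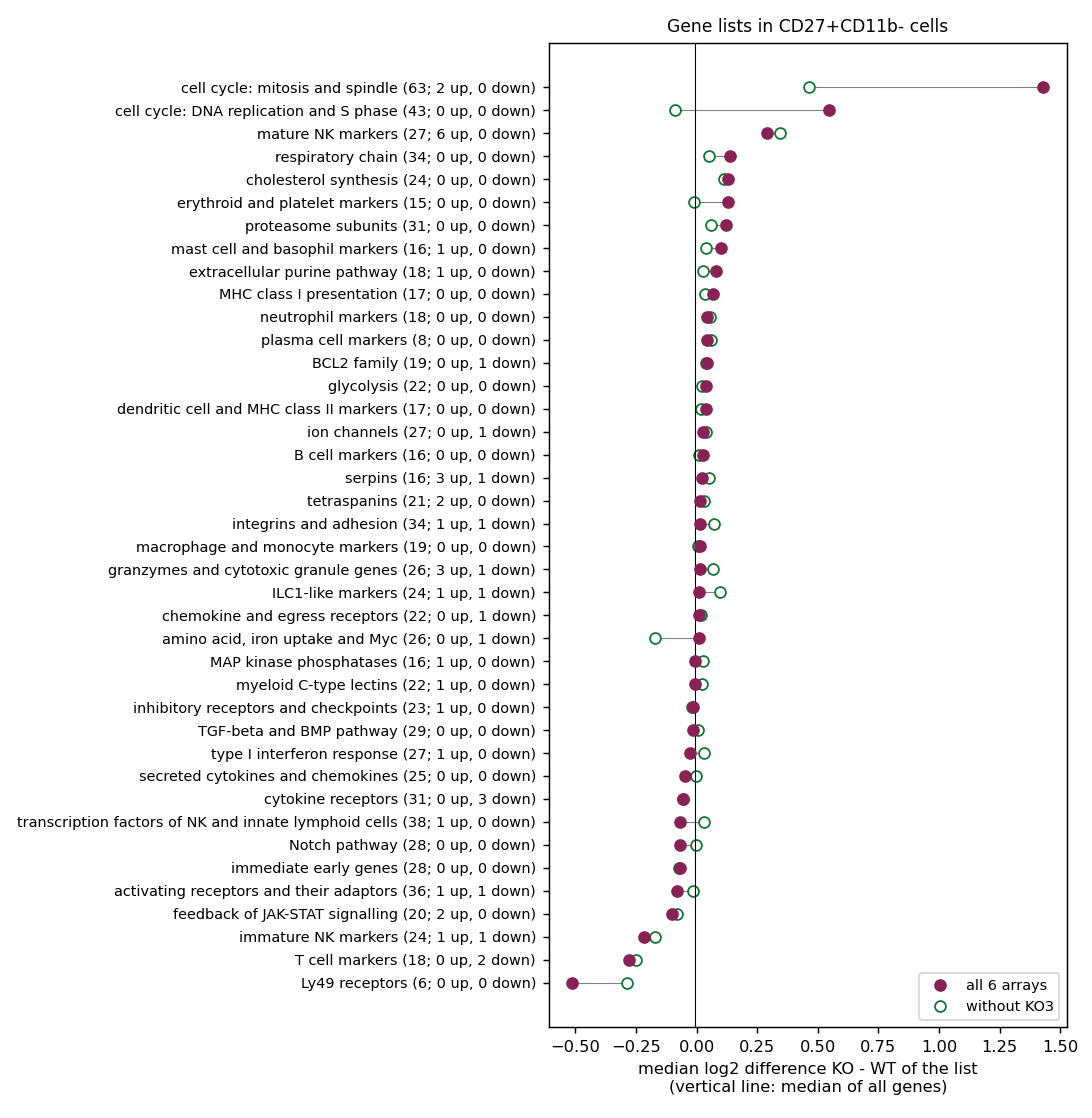
Median log2 difference of KO and WT for each gene list but those of the sort, of sex and of Runx factors (measured members and calls in brackets), with all 6 arrays (filled) and without KO3 (open); the line is the median of all genes. Of the lists drawn, mitosis genes have the highest median, 1.43, and it is 0.46 without KO3; most lists lie near 0 in both.

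Of 41 gene lists beside the sort and sex markers, 17 had no call. Without KO3 Ccr7, on the dendritic cell list, was their 1 call. They hold 380 entries, of which 57 were at an unadjusted p under 0.05 (11.6% of all probe sets were), and cover among others glycolysis, cholesterol synthesis, the proteasome, the respiratory chain, Notch signalling, MHC class I and secreted cytokines. All 9 of 34 respiratory chain and 7 of 31 proteasome genes at that level were higher in KO, and KO3 was the highest of the 6 arrays for 21 and 27 of the members. Among the cytokines Tnf read 7.77, 7.68 and 8.90 in WT and 6.57, 6.97 and 7.27 in KO (adjusted p = 0.0531), and Il10 5.46 to 5.54 in WT and 6.87, 5.97 and 7.69 in KO (adjusted p = 0.0884). In the plot of list medians those of the cell cycle, of amino acid, iron uptake and Myc genes and of Ly49 receptors moved the most when KO3 was left out.

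Cell cycle genes split by phase. On KO3 the mean log2 level of the 43 S phase genes was 9.22, against 7.13 to 7.32 on the other 5 arrays, and that of the 63 mitosis genes was 9.44. For the mitosis genes, however, KO1 (7.13) and KO2 (6.71) were also above WT1 to WT3 (6.28 to 6.37). None of the S phase genes passed (1 at an unadjusted p under 0.05). Their median of 0.55 with KO3 became -0.09 without it, and Mcm2, a subunit of the replicative helicase, read 7.87, 8.02 and 8.20 in WT, 7.53 and 7.51 on KO1 and KO2, and 10.43 on KO3. Of the mitosis genes Ccnb2 and Prc1 rose and 61 did not pass. Their median was 1.43 log2, and 0.46 without KO3. Prc1, which bundles spindle microtubules, read 6.37, 6.29 and 6.60 in WT and 8.38, 8.22 and 9.64 in KO (5.01-fold, 2.80 to 8.95, adjusted p = 0.0108). It passed without KO3 as well (adjusted p = 0.0299), but not without WT2 (0.0587). Ccnb2, cyclin B2, read 8.37, 8.06 and 7.40 in WT and 10.80, 9.62 and 12.19 in KO (7.60-fold, 2.96 to 19.5, adjusted p = 0.0456), and of the single arrays only KO2 could be left out without loss of the call: its adjusted p was 0.131 without KO3, 0.123 without KO1, and 0.0779, 0.146 and 0.142 without WT1, WT2 and WT3. Mki67, the proliferation marker, had KO arrays at 10.74, 10.32 and 12.33 above WT arrays at 9.21, 8.90 and 8.99, with an adjusted p of 0.111. KO3 shares its number with a DP and a CD11b array whose mitosis means were 9.85 and 9.45, against 7.05 to 7.61 on the other KO arrays of those subsets. With all 3 arrays of that number left out of the fit, 11 of the 63 passed in the immature subset, all higher, Mki67, Ccna2, Cdk1 and Aurkb among them. In that fit 455 of all 35399 probe sets passed, 189 of them higher. Ccnb2 passed there as well (2.27 log2, adjusted p = 0.0188), and its call ended with an intensity trend and robust prior (0.0587).

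**Figure D3:**
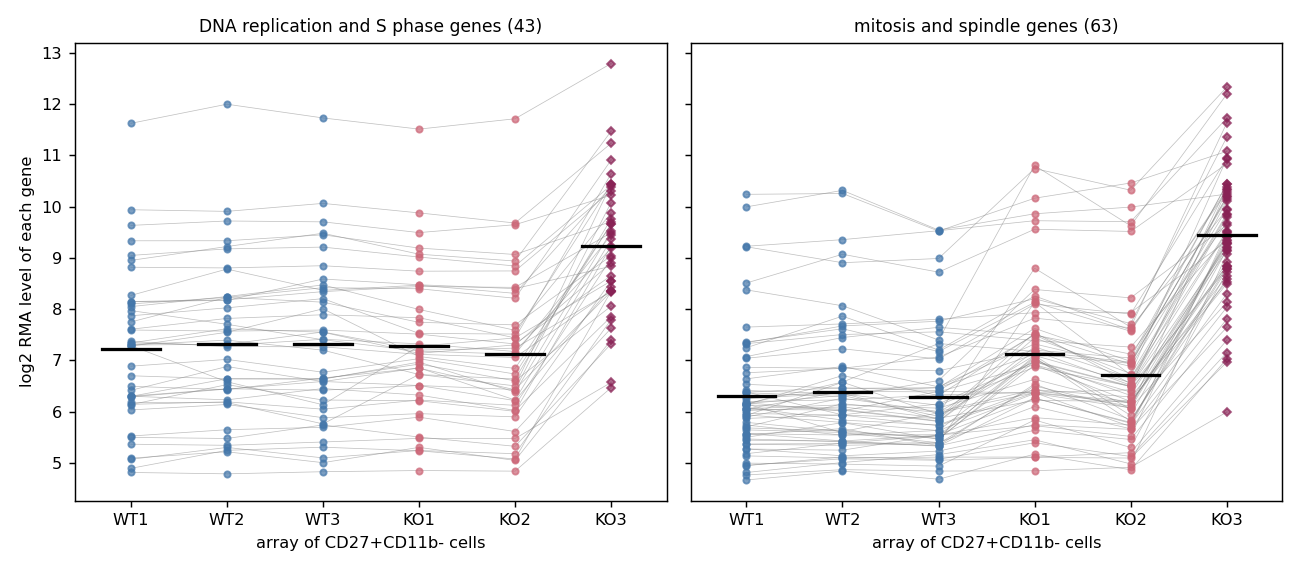
Log2 RMA level of each gene of DNA replication and S phase (43, left) and of mitosis and the spindle (63, right) on the 6 arrays; a thin line joins the values of 1 gene and the black bar is the mean. The S phase mean is 9.22 on KO3 and 7.13 to 7.32 elsewhere, while the mitosis mean is 7.13 and 6.71 on KO1 and KO2 and 6.28 to 6.37 in WT.

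Leaving out KO3 lost 147 calls (30 higher, 117 lower) and added 108 (77 higher, 31 lower). Cyclin B2 was among the calls lost, with a difference of 2.93 log2 with KO3 and 2.27 without it, although the same 2.27 passed (adjusted p = 0.0188) when the DP and CD11b arrays of that number were left out too. Among the added falls was Kit, the stem cell factor receptor of early lymphoid and mast cells, at 8.83, 9.78 and 10.24 in WT, 7.41 and 6.49 on KO1 and KO2, and 9.43 on KO3. KO3 thus lay within the WT range, and the difference was -1.84 with it (adjusted p = 0.211) and -2.66 without it (0.0244). Ccr7, the homing receptor for lymph nodes, behaved alike, with WT at 7.43 to 8.04, KO1 and KO2 at 6.36 and 6.52, and KO3 at 7.43 (adjusted p = 0.0908 with KO3 and 0.00433 without). Tbxa2r, C1ql3 and H2-Oa were the next falls to be added. Among the added rises were Chil5, a chitinase-like protein (log2 difference 3.33, adjusted p = 0.036, and 0.0748 with KO3), Glp1r, Igsf5 and Ckb, the brain creatine kinase. Of the 108, however, 15 are Y-linked probe sets such as Srsy, and without KO3 the only arrays of high Xist are WT2 and WT3.

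**Figure D4:**
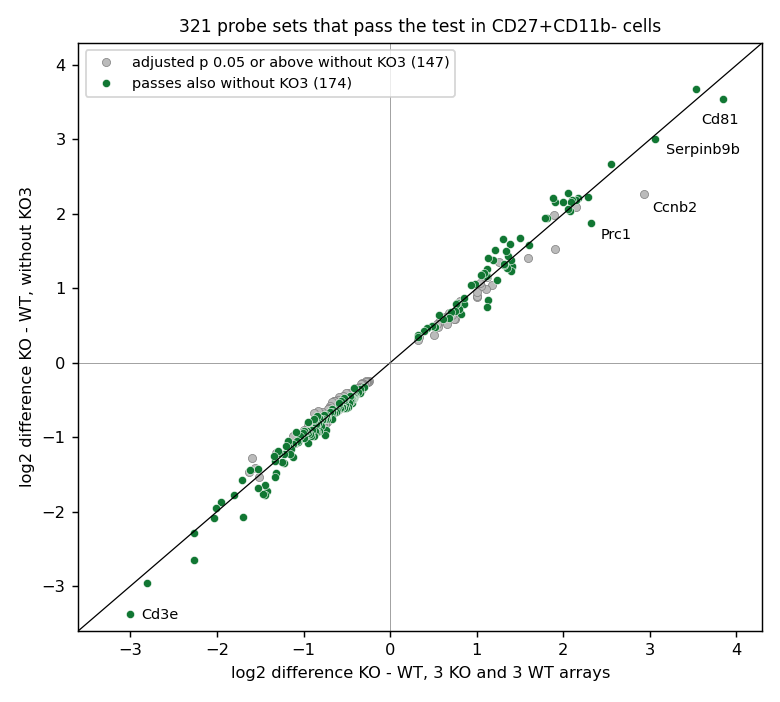
Log2 difference of KO and WT for the 321 probe sets that passed, with all 6 arrays (x) and without KO3 (y); green points (174) also passed without KO3, grey points (147) did not, and the line marks equal values. Ccnb2 lies below the line, at 2.93 and 2.27, and Cd3e at -3.0 and -3.37.

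Part of the changes were also called in the more mature subsets. Of the 321 probe sets, 86 also passed in DP cells and 110 in CD11b cells in the same direction, 73 in both, and 198 in neither, where 0.395% and 1.29% of all probe sets passed. None of the 321 passed in the opposite direction in either subset. Clec4e rose by 2.55 log2 in the immature subset, 2.98 in DP and 2.81 in CD11b cells, Cd81 by 3.84, 3.13 and 2.74, and Clip4 fell by 2.01, 2.54 and 2.68. The median ratio of the difference in DP cells to that in immature cells was 0.643, and for CD11b cells it was 0.539, but the 321 were chosen for their difference in the immature subset. The test of the difference itself, the effect in immature cells minus the mean effect of the other subsets, passed for 4 probe sets (0.0113% of those tested), with 1386 at an unadjusted p under 0.05. Dscam was detected above the floor in WT immature cells, at 6.69 to 7.54, and was at 5.14 to 5.54 in WT DP and 4.94 to 5.04 in WT CD11b cells. Its KO effect was -2.27 in the immature subset, -0.43 in DP and -0.08 in CD11b cells, a difference of -2.02 (SE 0.19, adjusted p = 0.0019). Arhgap5 fell from 6.97, 7.08 and 6.71 to 5.63, 5.57 and 5.59 in immature cells, and its effect was -0.28 in DP and -0.11 in CD11b cells (difference -1.14, adjusted p = 0.00772). Tnfaip8, a TNF-induced regulator of cell death, fell by 0.86 log2 in immature cells, with effects of -0.04 and 0.27 elsewhere (difference -0.97, adjusted p = 0.0483). Of its 2 probe sets 1 passed in immature cells. Tnfaip8 was at 6.89 to 7.19 in WT DP and 7.02 to 7.05 in WT CD11b cells, below the 7.27 to 7.60 of immature KO cells. The last, the kinase gene Nuak1, passed because of another subset: it was at 4.97 to 5.24 on all 6 immature arrays and fell by 3.25 log2 in CD11b cells. Dscam and Arhgap5 (5.6 to 6.01 in WT mature cells) were close to their KO level in the mature WT cells, so a fall as large as that in immature cells could not have been measured there. The number that passed was 16 without WT1, 14 without WT3, 7 without KO3 and 1 without all 3 arrays of KO number 3, and 0 among probe sets brighter than the median. That last filter took out Dscam, Arhgap5 and Nuak1 before the test, so of the 4 it tested only Tnfaip8 again.

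Gzmb, Serpinb9b and Gpx8 had differences between subsets of 1.66, 2.19 and 2.02 log2 that did not pass (adjusted p = 0.0865 each). All 3 were higher on WT arrays of the mature subsets than on those of the immature subset. Gzmb was at 12.28 to 12.49 in immature KO cells, 11.86 to 12.36 in WT DP and 12.51 to 12.74 in WT CD11b cells, against 9.68 to 10.86 in immature WT cells. Serpinb9b was at 12.83 to 13.11 in immature KO cells, above the 11.85 to 12.37 of WT DP cells. Gpx8, at 10.45 to 11.27, stayed below the 11.67 to 11.91 of WT DP cells and the 12.90 to 13.03 of WT CD11b cells. In the same way Gzmm and Cd3e were lower on mature than on immature WT arrays, with Gzmm at 6.70 to 6.99 in WT DP cells and 6.3 to 7.57 in immature KO cells, and Cd3e at 5.61 to 6.27 and 6.39 to 7.65. No test was made of these levels, since the immature WT arrays would enter both sides.

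**Figure D5:**
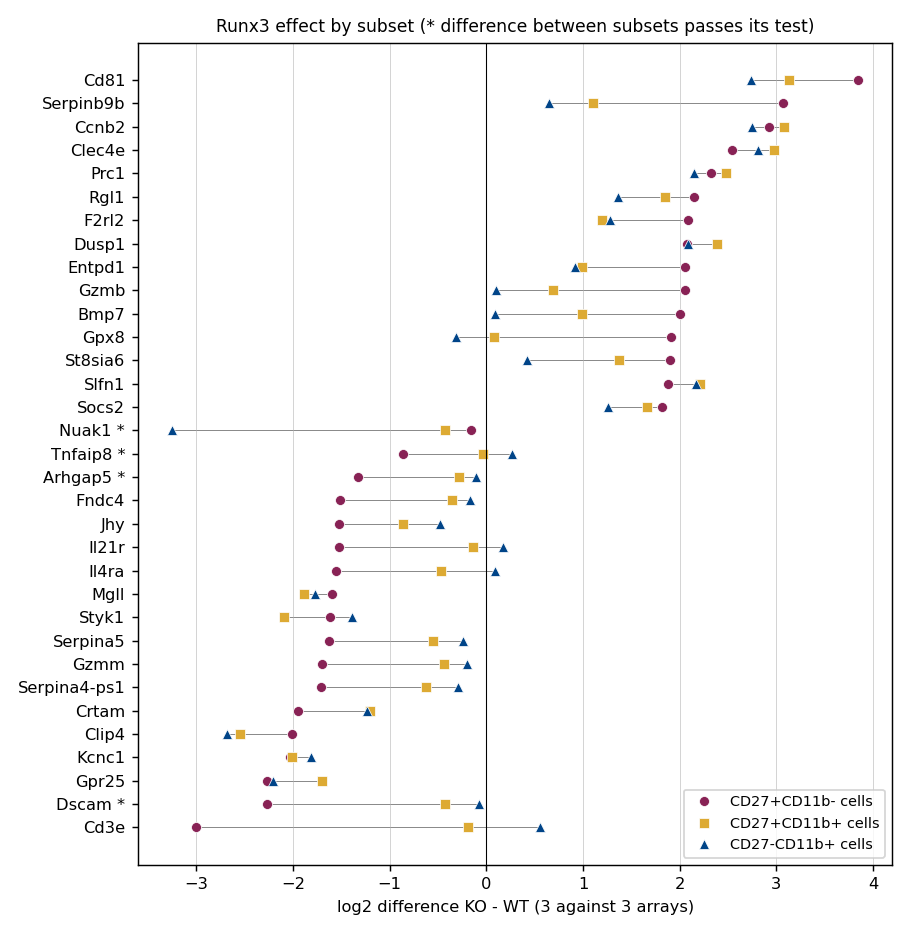
Log2 difference of KO and WT (3 against 3 arrays each) in immature CD27+CD11b- cells (circles), DP cells (squares) and CD11b cells (triangles) for the 30 leading genes and the 4 whose difference between subsets passed its test (asterisk, Dscam being in both sets). Clec4e, Clip4 and Kcnc1 have similar values in all 3 subsets, while Dscam is at -2.27, -0.43 and -0.08.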

How the data were processed

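RNA of NK cells sorted from spleen was extracted with an RNeasy micro kit, amplified with a WT-cDNA kit and hybridised to Affymetrix Mouse Gene 1.0 ST arrays, per the labels' protocols. The deposited values are log2 expression made by the authors with RMA, and Partek is named too, per the submitters' processing notes, which give no version of either. Scanner values were not used here. Depth has no counterpart on an array, and precision is limited by the 3 arrays per group.

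limma 3.58.1 (R 4.3.3, statmod 1.5.0) fitted 1 mean per group to all 18 arrays, so the 6 groups share the estimate of spread (12 residual degrees of freedom). Moderated tests were adjusted by Benjamini-Hochberg over 35399 probe sets, with adjusted p under 0.05 as the call. An exact permutation test of 3 against 3 arrays cannot go below 0.1 and was not used. Probe sets were named from the platform annotation: 21789 have 1 gene symbol, 1621 several and 11989 are not listed. Each gene of a list is its brightest probe set.

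Genes were named as the 15 largest rises and falls among called, non-overlapping probe sets, up to 4 called members of each list (the 2 largest differences where none was called), the 5 largest each way called only without KO3, those whose difference between subsets passed, and 8 fixed genes; predicted genes, histone genes and olfactory receptors may be passed over. Genes that the text names beyond these, such as markers given by their level, illustrate a list. The genes and lists were chosen with earlier results of these data known. Alternatives were cyclic loess, a filter on dim probe sets, another variance prior, the 6 arrays alone, array weights, a replicate block, Xist as a covariate, a minimum fold and each array left out.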

Additional observations from a re-analysis of the deposited data

Results flagged for a closer look

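The difference of the KO effect between immature cells and the mean of DP and CD11b cells passed limma's test for 4 genes. It was -2.02 log2 for Dscam (adjusted p = 0.0019), -1.14 for Arhgap5 (0.00772) and -0.973 for Tnfaip8 (0.0483), which had their larger falls in immature cells. Dscam and Arhgap5 were close to their KO level in WT DP and CD11b cells, where a fall of that size could not be measured. Tnfaip8 was at 6.89 to 7.19 in WT DP and 7.02 to 7.05 in WT CD11b cells, below the 7.27 to 7.60 of immature KO cells. Among probe sets above the median level 0 passed, but that filter took out Dscam, Arhgap5 and Nuak1 before the test. The difference was 1.67 for Nuak1 (0.00328), where the fall was in CD11b cells and not in immature cells.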

How the results depend on the processing

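The 321 calls of all arrays became 3974 with array weights (1524 higher, 2450 lower), 14 with the 6 arrays of the immature subset alone (6 higher, 8 lower) and 212 with a fold of at least 1.5. Leaving out 1 array gave 117 to 282 calls, of which 44 to 138 were higher and 73 to 159 lower. The 91 higher calls became 148 under cyclic loess, 145 with Xist as a covariate and 189 without all 3 arrays of KO number 3. The 282 calls without KO3 became 3 with the arrays of that subset alone, 502 with array weights and 170 with Xist. The 4 differences between subsets became 0 among probe sets above the median level, which hold only Tnfaip8 of the 4. They became 47 with array weights, 7 with Xist, 1 without all 3 arrays of KO number 3, and 3 to 16 with 1 array left out. The 6 arrays alone leave fewer degrees of freedom, and the cause of these shifts was not tested. The alternatives named neither here nor in the next paragraph left the counts within 1.5 times.

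The labels do not say whether array numbers pair WT with KO. The deviations of same-numbered arrays from their group means correlated at 0.19, -0.07 and 0.054, and those of other WT and KO arrays at -0.18 to 0.071. With 3 arrays per group these values cannot decide it. Within a genotype, however, same-numbered arrays of different subsets were alike, with an estimated correlation of 0.21 in the random block. The main fit had no term for array number. It treated these arrays as independent, both for the shared spread and for the test of differences between subsets. With a replicate block 526 passed (184 higher), and 10 differences between subsets (17 with a random block within genotype). Of the named genes that passed, Cd3d lost its call under both (adjusted p = 0.0555 and 0.0551), and no other did.

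The S phase median turned to -0.089 without KO3, and with all 3 arrays of that number left out (-0.089 to 0.907 with 1 array left out). Genes near 0 also changed sign: Cbfb (-0.094 with array weights, -0.0093 without WT3, -0.0093 to 0.091 with 1 array left out), Ncr1 (0.0083 with array weights) and Tbx21 (0.014 without KO3 or all arrays of its number, 0.011 without WT1, -0.14 to 0.014 with 1 array left out). Of the 51 named genes that passed, 28 kept their call with each array left out, and 6 in every alternative. Dim probe sets near the floor compress fold changes.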
